A study of Mus musculus with 2 samples.

Results

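The genes described here build autophagosomes, sort membrane proteins into endosomes and fuse transport vesicles with their targets. They were taken as all probe sets whose only annotated symbol begins with Atg, Vps, Vamp, Stx, Chmp, Ulk or Wipi and a digit, or with Becn1, Gabarap or Map1lc3. The pattern found 230 probe sets of 96 genes, among 18193 named genes on the array. It uses names alone and no measured value. The set includes Vps28 and Vamp4, which have been reported as direct targets of the transcription factor Miz-1.

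Gene expression was read on 2 oligonucleotide arrays, 1 from Miz1 knockout and 1 from wild-type thymocytes, both of the C57BL/6 genetic background. Miz-1 is the product of Zbtb17, and the mutant mice carry a form without the POZ domain, through which the protein binds its partners. The cells of both arrays are DN3 thymocytes, T cell precursors sorted as negative for lineage markers and CD44 and positive for CD25. The age of the mice, what drives the deletion and whether animals were pooled are not stated in the labels. With 1 array per genotype there is no replicate and no test, so every difference below is a description of these 2 arrays and carries no error between animals.

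Autophagy is the route by which a cell wraps part of its cytoplasm in a double membrane and delivers it to the lysosome. The ULK kinases and the Beclin 1 lipid kinase complex start it, and a pair of ubiquitin-like conjugation systems then attaches ATG8 proteins, the LC3 and GABARAP families, to the growing membrane. The ESCRT complexes bend and cut membranes away from the cytoplasm and help to close the autophagosome, while tethers such as HOPS and the SNAREs bring about fusion with endosomes and lysosomes. In T cells autophagy is known to remove mitochondria and endoplasmic reticulum and to be needed for survival.

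Signals are in the arrays' own intensity units, on a linear scale. The floor was set at 394, the median over the non-control values of the 2 arrays together, and lower values were raised to it before the log2 ratio of knockout over wild type was taken. A gene was read by its probe set of highest mean signal and was called measured when that mean lay above the floor. A difference was counted from 2-fold upwards when the brighter array lay above the floor, and where the dimmer array lay under it the fold is a lower bound, written as at least that fold. Of the 96 genes, 89 were measured (92.7%), compared with 10770 of all 18193 named genes (59.2%).

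Most of these genes lay close together on the 2 arrays. Of the 89 measured genes, 3 were higher in the knockout by 2-fold or more (3.37%) and 5 were lower by as much (5.62%). Among all measured genes 7.23% were that much higher and 5.65% that much lower, 12.9% in either direction, while 8.99% of the autophagy, ESCRT and SNARE genes were. The higher genes were Atg2a, Vps37a and Vamp5, and the lower genes were Vps28, Vamp4, Vps29, Stx2 and Atg9b. The median log2 ratio of the 89 genes was 0.14, beside 0.00 for all measured genes, with 52 genes above 0 and 37 below. The median size of the log2 ratio, sign left out, was 0.33 for these genes and 0.45 for all. With each array centred on its median, a step that shifts the median of all measured genes to -0.16, the median of the set was -0.02. In that scaling 2 genes of the set were higher (2.25%) and 6 lower (6.74%) by 2-fold or more, beside 5.25% and 8.60% of all measured genes. In a bulk sample, less RNA per cell and fewer cells that hold it cannot be told apart.

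**Figure D1:**
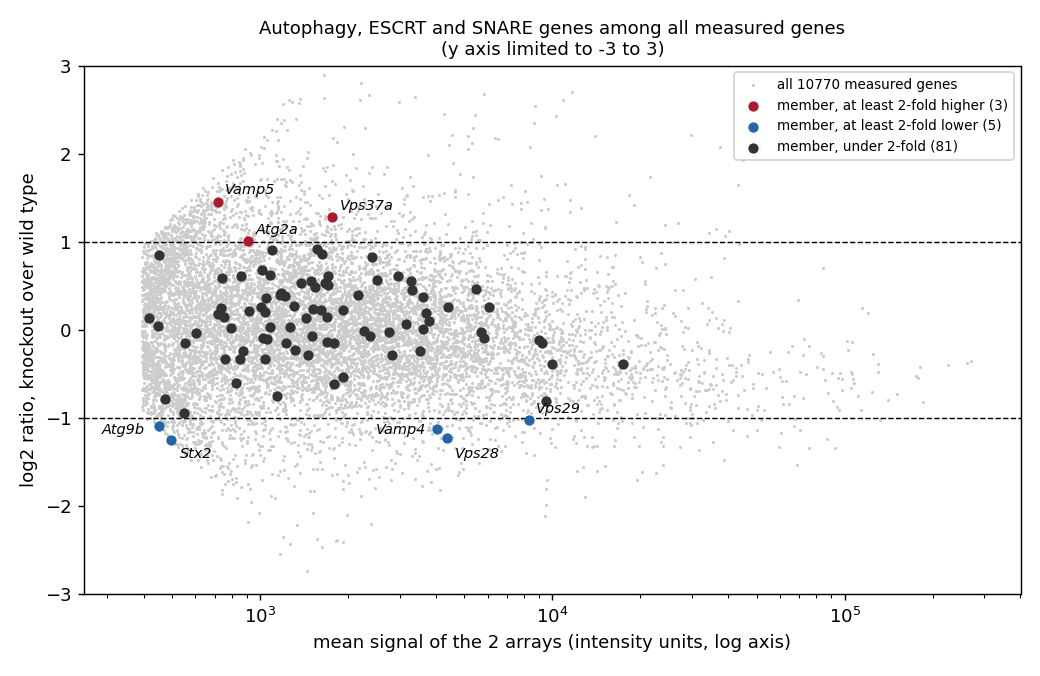
Log2 ratio of knockout over wild type against the mean signal of the 2 arrays (intensity units, log axis), with 1 point per measured gene. Grey points are all 10770 measured genes, and larger points are the 89 autophagy, ESCRT and SNARE genes, with the 3 genes past 2-fold on the high side in red and the 5 past 2-fold on the low side in blue. Most of the larger points lie between the dashed lines that mark 2-fold.

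The only repeated measurement within these arrays is that of several probe sets of a gene. Of the 89 genes, 43 had several measured probe sets and 46 had 1. Within a gene the log2 ratios of its probe sets had an SD (root mean square over genes) of 0.58 for the 43 genes, and of 0.57 for all 4514 genes with several. In 29 of the 43 genes the measured probe sets lay on both sides of 0, in 11 all lay above it and in 3, Atg5, Atg7 and Vps53, all lay below. No gene with several measured probe sets had all of them past 2-fold. Of the 161 measured probe sets of the set, 7 were higher and 8 lower by 2-fold or more, 9.32% in all. Of all measured named probe sets, 7.76% were that much higher and 5.68% that much lower, 13.4% in all. Probe sets of a gene can match different transcripts, and where each lies in its gene was not analysed here.

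**Figure D2:**
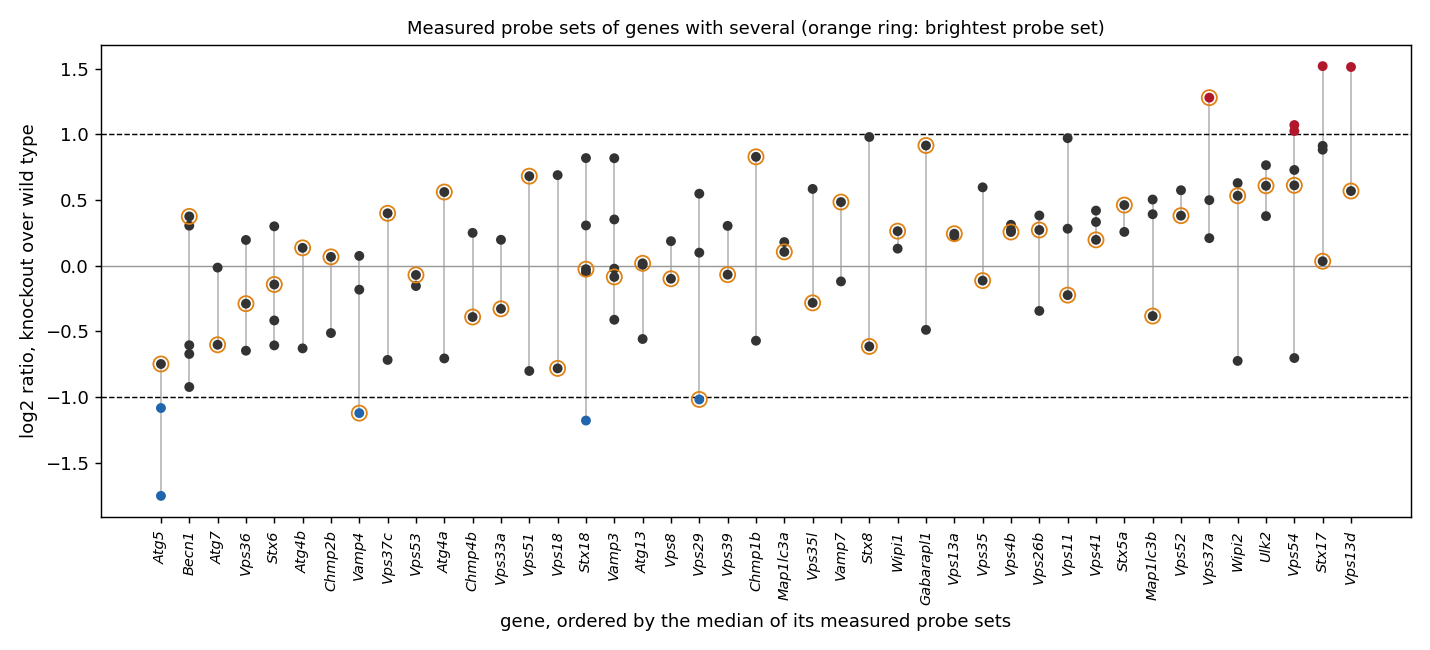
Log2 ratio of knockout over wild type of every measured probe set of the 43 genes with several, ordered by the median of each gene. Orange rings mark the brightest probe set, red points are past 2-fold on the high side and blue points on the low side. The probe sets of most genes spread across 0, while the 3 of Atg5 lie below it and the 4 of Stx17 above it.

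Among the genes that start autophagy no large difference was seen. Ulk1, a kinase that triggers the process, read 989 in knockout and 1052 in wild-type cells. Its partner genes Atg13 and Atg101 were as close by their brightest probe sets, with log2 ratios of 0.02 and 0.04. The other 2 probe sets of Atg13 stood at 0.01 and, with 613 in knockout and 903 in wild-type cells, at -0.56. Ulk2, which can stand in for Ulk1, read 2056 in knockout and 1349 in wild-type cells, and its 3 measured probe sets had log2 ratios from 0.38 to 0.77. Ulk3 had a log2 ratio of 0.22, and Ulk4 lay under the floor on both arrays. Becn1, which encodes Beclin 1, the regulatory part of the lipid kinase complex, read 4067 in knockout and 3136 in wild-type cells by its brightest probe set. Its 5 probe sets do not give a direction, with 2 at 0.37 and 0.30 and the other 3 between -0.92 and -0.61. The ratio of -0.92 is a bound. Atg14, the subunit that makes this complex act in autophagy, read 886 in knockout and 589 in wild-type cells.

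The genes for lipid supply to the new membrane held 1 gene past 2-fold on either side. Atg2a encodes a bridge along which lipids flow from the endoplasmic reticulum. It read 1217 in knockout and 604 in wild-type cells, 2.01-fold higher, just past the limit and by its only probe set. Under other scalings of the arrays its log2 ratio was as low as 0.86. Its paralog Atg2b read 761 in knockout and 672 in wild-type cells, a log2 ratio of 0.18, and its other 2 probe sets lay under the floor by their mean. Atg9b encodes a lipid scramblase of the vesicles that seed the autophagosome. It read 62.3 in knockout and 841 in wild-type cells, at least 2.13-fold lower, whereas its paralog Atg9a was not measured. Wipi2, which recruits the conjugation machinery to the membrane, had log2 ratios of 0.53, 0.63 and -0.73 by its 3 probe sets, the last a bound. Wipi1 had a log2 ratio of 0.26 by its brightest.

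Several enzymes of ATG8 conjugation read lower in the knockout, though no gene among the 11 passed 2-fold by its brightest probe set. Atg5, which joins Atg12 to form the ligase for ATG8 proteins, read 853 in knockout and 1434 in wild-type cells by the brightest of 3 probe sets. The others read 580.1 and 312 in the knockout, against 1230.1 and 1329 in the wild type, 2.12-fold and at least 3.37-fold lower. Atg5 was thus lower by all of its probe sets, with 2 of the 3 past 2-fold. Atg3, the enzyme that passes ATG8 proteins to the lipid, read 6946 in knockout and 12139 in wild-type cells, 1.75-fold lower. Atg7, the activating enzyme of both conjugation systems, had log2 ratios of -0.60 and -0.01 by its 2 measured probe sets. Atg4c, a protease that trims ATG8 proteins, read 344 in knockout and 757 in wild-type cells, at least 1.92-fold lower. A second Atg4c probe set, not measured by its mean, read 636 in knockout and 59.4 in wild-type cells, in the opposite direction. The remaining genes of the group were nearer to 0 or above it, with Atg4a highest at 0.56 and Atg12 at 0.53. Second measured probe sets turned the direction of Atg4a, at -0.71 with a mean of -0.07, and of Atg4b. Atg4b stood at 0.14 by the brightest and at -0.63, a bound, by the second. The median of the 11 was 0.04, and -0.25 when each gene was read by the mean of its measured probe sets.

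All 5 genes of the ATG8 family were measured and none passed 2-fold. Map1lc3b, the LC3 protein most used to follow autophagy, read 8678 in knockout and 11324 in wild-type cells by its brightest probe set. The other 2 measured probe sets gave the opposite direction, at 0.39 and 0.50, so the array gives none for this gene. Gabarapl1 read 2038 in knockout and 1081 in wild-type cells, a log2 ratio of 0.92, while its second probe set stood at -0.49. Gabarap, Map1lc3a and Gabarapl2 had log2 ratios of 0.46, 0.10 and -0.24. Atg4a and Vamp7 are the X-linked genes of the set, and the sexes of the animals differed, as Xist read 20313 in knockout and 69.7 in wild-type cells by 1 of its probe sets. Sex and genotype cannot be told apart on these arrays.

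**Figure D3:**
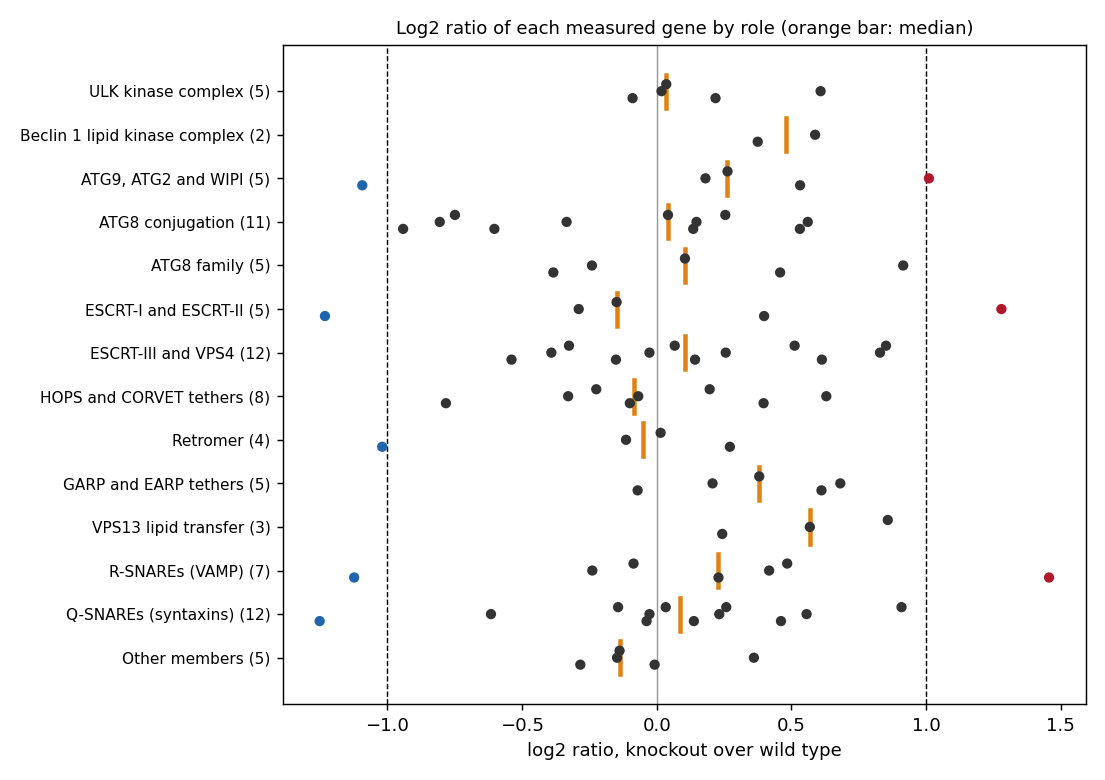
Log2 ratio of knockout over wild type of each measured gene, with genes in rows by role and the number of genes in brackets. Orange bars are medians, red points are past 2-fold on the high side and blue points on the low side, and dashed lines mark 2-fold. The medians lie between -0.15 for ESCRT-I and ESCRT-II and 0.57 for VPS13.

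Of the ESCRT genes 2 passed 2-fold by their brightest probe set, both subunits of ESCRT-I and in opposite directions. Vps28, a core subunit of ESCRT-I and a reported Miz-1 target, read 2608 in knockout and 6124 in wild-type cells, 2.35-fold lower, by the only probe set it has here. Vps37a, a second core subunit, read 2499 in knockout and 1029 in wild-type cells, 2.43-fold higher. Its other probe sets read 1369 and 644 in the knockout, against 1184 and 455 in the wild type, with log2 ratios of 0.21 and 0.50. All of its probe sets were thus higher in the knockout, 1 of the 3 passed 2-fold, and their mean was 0.66. The alternative subunits Vps37b and Vps37c had log2 ratios of -0.15 and 0.40, with a second Vps37c probe set at -0.72, and Vps37d was not measured. In ESCRT-II, the complex between ESCRT-I and ESCRT-III, Vps36 read 2539 in knockout and 3103 in wild-type cells. Its other probe sets stood at 0.20 and -0.65, and Vps25 lay under the floor. The Vps37c ratio of -0.72 and the Vps36 ratio of -0.65 are bounds.

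The filament-forming ESCRT-III genes and the ATPases that take the filaments apart held no gene past 2-fold among the 12. Chmp4b, the main filament subunit, read 15049 in knockout and 19737 in wild-type cells, a log2 ratio of -0.39, with a second probe set at 0.25. Chmp1b had log2 ratios of 0.83 and -0.57 by its 2 probe sets. Vps4a read 1568 in knockout and 2278 in wild-type cells, while its paralog Vps4b had log2 ratios from 0.26 to 0.31 by 3 probe sets. Of these, 2 are bounds, as their wild-type readings of 346 and 349 lay under the floor. Chmp4c read 711 in knockout and 188 in wild-type cells, at least 1.80-fold higher, since the wild-type reading lay under the floor. The median of the 12 genes was 0.10.

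Genes of tethers and retromer were likewise near to each other on the 2 arrays, with Vps29 the only gene past 2-fold by its brightest probe set. Vps29 is a subunit of retromer, which returns receptors from endosomes. It read 5496 in knockout and 11138 in wild-type cells, 2.03-fold lower, by a probe set that can match several transcripts. Its other 2 measured probe sets read 1369 and 1012 in the knockout, against 1278 and 692 in the wild type, and so lay on the other side of 0, and the mean of the 3 was -0.12. The retromer subunits Vps35, Vps26a and Vps26b had log2 ratios of -0.11, 0.01 and 0.27 by their brightest probe sets, and Vps35 and Vps26b each had a probe set on the other side of 0, at 0.60 and -0.34. The 8 measured genes listed under HOPS and CORVET, the tethers of lysosomes and early endosomes, ranged from -0.78 for Vps18 to 0.63 for Vps33b. Their median was -0.08. The list holds Vps33a and its paralog Vps33b, whose place in these tethers was not checked, and the next highest was Vps16 at 0.40. The Vps18 ratio is a bound, with 269 in knockout and 678 in wild-type cells. Vps18 had 1 other measured probe set, at 0.69, also a bound, with 636 in knockout and 202 in wild-type cells. Vps41, a subunit of HOPS, had log2 ratios from 0.20 to 0.42 by 3 probe sets.

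Subunits of the GARP and EARP tethers, which receive vesicles at the Golgi and at recycling endosomes, and the VPS13 lipid transfer genes read mostly higher in the knockout. By their brightest probe sets 4 of 5 tether genes had a ratio above 0, with a median of 0.38. All 3 measured VPS13 genes did too, with a median of 0.57. Among all measured genes 50.0% had a ratio above 0, and 58.4% of the set. Vps54, the subunit particular to GARP, read 3590.2 in knockout and 2350 in wild-type cells by its brightest probe set. Of the other 4 probe sets, 2 were past 2-fold, at 1976 and 828 in the knockout, against 971 and 300.0 in the wild type. Another stood at 0.73 and the last at -0.70, both bounds, so 4 of 5 probe sets were higher in the knockout. Vps51 had log2 ratios of 0.68 and -0.80 by 2 probe sets, the second a bound, with 144 in knockout and 687 in wild-type cells. Vps13d, needed for the clearance of mitochondria, read 2989 in knockout and 2016 in wild-type cells, and by a second probe set 1125 in knockout and 345 in wild-type cells, at least 2.85-fold higher. Vps13b read 2098 in knockout and 1158 in wild-type cells, a log2 ratio of 0.86, and Vps13a had log2 ratios of 0.24 and 0.23.

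The VAMP genes encode R-SNAREs, the vesicle's share of the helix bundle that drives fusion. Vamp4, a SNARE of the trans-Golgi network and a reported Miz-1 target, read 2544 in knockout and 5541 in wild-type cells by its brightest probe set, 2.18-fold lower. Its other probe sets read 1138 and 422 in the knockout, against 1081 and 479 in the wild type, with log2 ratios of 0.07 and -0.18. Vamp4 was therefore past 2-fold by 1 of its 3 probe sets, and the mean of the 3 was -0.41. Vamp5, a family member known from muscle, read 1082 in knockout and 354 in wild-type cells, at least 2.74-fold higher. With the floor at the 60th percentile its log2 ratio was 0.98, and a second probe set whose mean lay under the floor read 141 in knockout and 550.4 in wild-type cells. Vamp7 and Vamp8, which act in fusion with lysosomes, had log2 ratios of 0.48 and 0.23, with a second Vamp7 probe set at -0.12. Vamp3, a SNARE of recycling endosomes, read 5654 in knockout and 6001 in wild-type cells, and its 5 probe sets ranged from -0.41 to 0.82. The upper end is a bound, with 695 in knockout and 119 in wild-type cells.

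**Figure D4:**
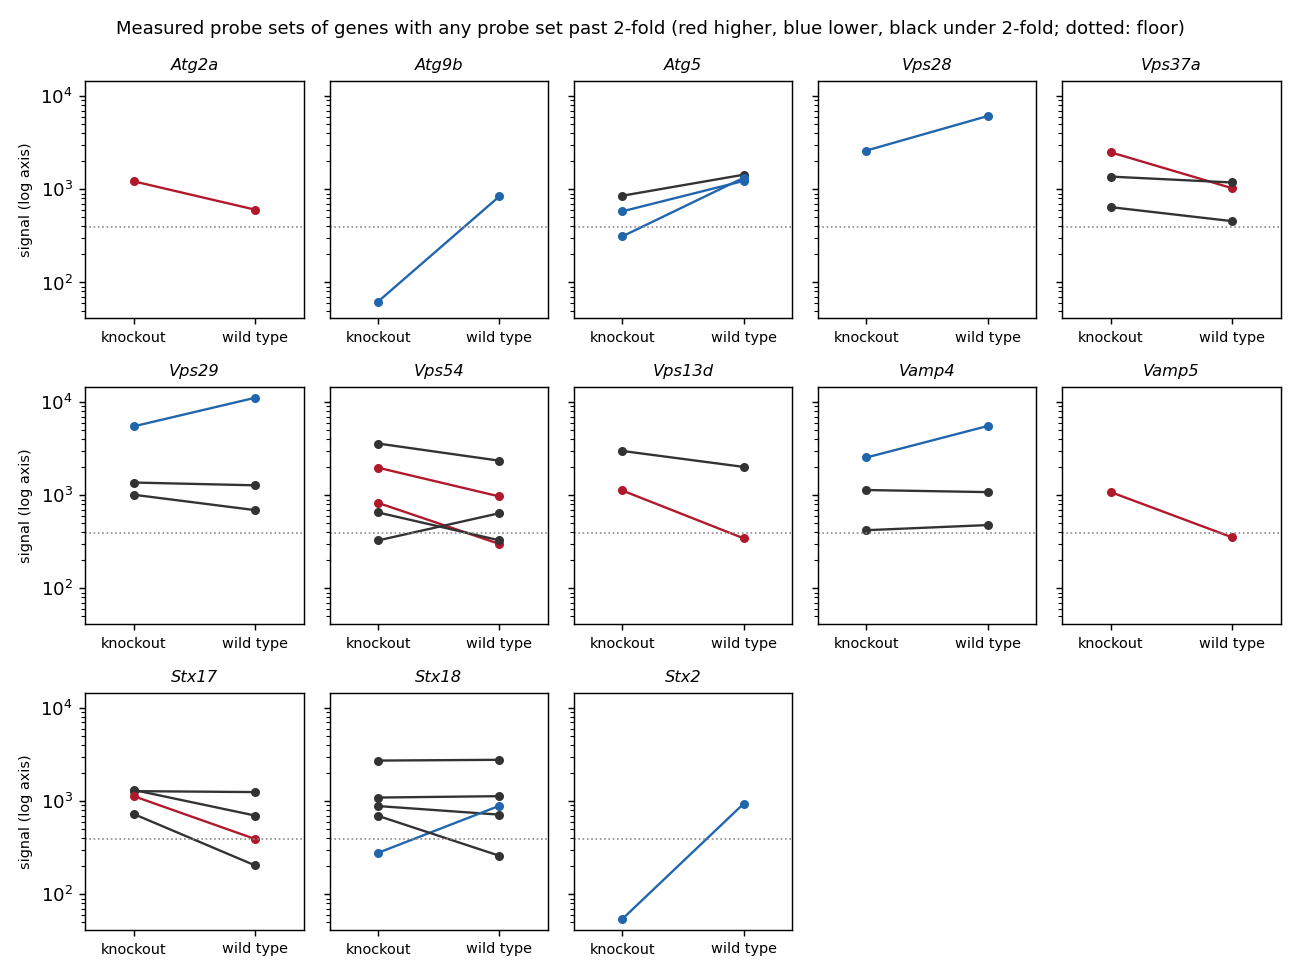
Signal on the knockout array and the wild-type array (intensity units, log axis) of every measured probe set of the 13 genes with any probe set past 2-fold, each line joining the readings of 1 probe set. Red lines are past 2-fold on the high side, blue lines on the low side, and black lines are under 2-fold, and the dotted line is the floor of 394. Atg5 lines all run the same way, whereas those of Vamp4 and Vps29 do not.

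Among the syntaxins, Q-SNAREs of the target membrane, 12 of 14 genes were measured and only Stx2 passed 2-fold by its brightest probe set. Stx2, a SNARE of the cell surface, read 54.2 in knockout and 938 in wild-type cells, at least 2.38-fold lower, by its only probe set. Stx17 is the syntaxin placed on finished autophagosomes for fusion with lysosomes. By the brightest probe set it read 1282 in knockout and 1253 in wild-type cells, but the other 3 were higher, with log2 ratios of 0.91, 1.52 and 0.88. The last 2 are bounds, as their wild-type readings lay under the floor. Reading the gene by the mean of its probe sets gave 0.84. Stx7, which acts at late endosomes, read 1438 in knockout and 766 in wild-type cells, a log2 ratio of 0.91. Its partner gene Stx8 had log2 ratios of -0.62 and 0.98 by 2 probe sets. The 5 probe sets of Stx18, a syntaxin of the endoplasmic reticulum, ranged from -1.18 to 0.82, the widest range in the set. Both ends are bounds, with 279 in knockout and 893 in wild-type cells at the lower end, and 696 and 259 at the upper. Stx6, a syntaxin of the trans-Golgi network that pairs with Vamp4, read 8746 in knockout and 9660.3 in wild-type cells, with its other 3 measured probe sets between -0.61 and 0.30. Stx16, another partner of Vamp4, read 4774 in knockout and 3992 in wild-type cells.

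The 5 genes of the name pattern, Vps45, Vps72, Vps26c, Vps35l and Vps9d1, belong to none of these groups and had log2 ratios between -0.28 and 0.36. Vps72 encodes a subunit of chromatin remodelling complexes in spite of its name, and read 1607 in knockout and 1769 in wild-type cells.

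Partner genes that the name pattern leaves out passed 2-fold about as often as those inside it. Of 54 measured genes in the 4 lists of autophagy partners, autophagy receptors, ESCRT partners and SNARE partners, 2 were higher (3.70%) and 3 lower (5.56%) by 2-fold or more, beside 7.23% and 5.65% of all measured genes, and the median log2 ratio was 0.16. Rb1cc1, the scaffold of the ULK complex, read 1935 in knockout and 883 in wild-type cells, 2.19-fold higher, with a second probe set at 0.75. Scfd1, which assists SNAREs between endoplasmic reticulum and Golgi, was 2.02-fold higher. Snf8, a subunit of ESCRT-II, read 1877 in knockout and 4226 in wild-type cells, 2.25-fold lower, and the mitophagy receptor gene Bnip3 was 2.17-fold lower. Snap23, a Q-SNARE of the cell surface, was 2.43-fold lower by the brightest of 3 probe sets, which ranged from -1.28 to 0.50. Tsg101, the ESCRT-I subunit that binds Vps28, had a log2 ratio of 0.18 and the autophagy receptor gene Sqstm1 one of 0.49.

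The sequences before the start sites of the genes were searched for letters associated with Miz-1 and with E-box factors. Sequences of 250 bases before each start site were taken from RefSeq (GRCm38.p6) and found for 72 of the 96 genes and for 27025 genes in all. The motif ATCGAT, the same on both strands, and a longer motif searched on either strand, both described for Miz-1, were in none of the 72, and in 0.836% and 0.0037% of all genes. Vps28 is not among the 72 genes and was not searched, and no match says only that these letters are not in the windows. The E-box CACGTG, bound by factors such as MYC, USF and TFEB and again the same on both strands, was in 8 of the 72 genes (11.1%) and in 6.86% of all. The longer motif TCACGTGA, which contains it, was in 5 of the 72 (6.94%) and in 0.907% of all. These shares of all genes also count genes that were not measured on the arrays. Among measured genes 850 had CACGTG and 7889 did not, beside 8 and 58 genes of the set. For TCACGTGA no share of measured genes was taken. The E-box motifs were chosen after expression values had been seen, so the ratios that follow are a description and no test of them. The 8 genes were Atg3, Atg5, Atg7, Stx6, Vamp4, Vps16, Vps26a and Vps33a. By their brightest probe sets their median log2 ratio was -0.47, with 6 of 8 below 0. Other measured probe sets put Vamp4 at 0.07 and -0.18, Atg7 at -0.01 and Vps33a at 0.20. Those of Stx6 lay between -0.61 and 0.30, whereas those of Atg5 were lower, at -1.08 and -1.75. The 58 measured genes of the set without the E-box had a median of 0.19, while the medians of all measured genes with and without it were -0.04 and 0.00. Of all 850 measured genes with the E-box, 445 lay below 0. The windows of Vamp4, Atg5 and Atg3 are shown because these are the E-box genes with the lowest ratios. They lie on the plus strand at chr1:162570265-162570514 for Vamp4, chr10:44268089-44268338 for Atg5 and chr16:45158579-45158828 for Atg3, and capitals mark CACGTG or TCACGTGA.
Vamp4: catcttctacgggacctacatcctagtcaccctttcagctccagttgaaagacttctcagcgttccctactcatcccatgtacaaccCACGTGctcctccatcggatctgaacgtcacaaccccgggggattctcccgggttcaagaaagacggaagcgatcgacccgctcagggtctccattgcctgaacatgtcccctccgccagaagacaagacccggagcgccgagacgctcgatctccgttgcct
Atg5: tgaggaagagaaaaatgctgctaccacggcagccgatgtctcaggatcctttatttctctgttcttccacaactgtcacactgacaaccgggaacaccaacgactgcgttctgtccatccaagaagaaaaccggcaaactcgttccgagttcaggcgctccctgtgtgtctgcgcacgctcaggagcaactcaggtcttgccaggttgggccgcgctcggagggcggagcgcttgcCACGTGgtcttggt
Atg3: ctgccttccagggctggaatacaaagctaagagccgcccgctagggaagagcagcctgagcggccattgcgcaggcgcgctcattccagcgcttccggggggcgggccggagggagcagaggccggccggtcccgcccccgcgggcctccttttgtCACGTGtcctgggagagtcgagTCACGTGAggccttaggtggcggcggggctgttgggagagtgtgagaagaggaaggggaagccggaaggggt
The E-box of Atg5 begins 14 bases before the start site and that of Vamp4 163 bases before it. A second annotated start site of Vamp4 had no E-box in its window. A match in these letters is a description and does not show that a factor binds there.

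Values of the arrays as a whole stand beside these differences. Zbtb17 read 1361 in knockout and 3042 in wild-type cells by its measured probe set. A second Zbtb17 probe set, not measured by its mean, read 610 in knockout and 47.6 in wild-type cells, at least 1.55-fold higher, and the place of both relative to the deleted part is unknown here. Of the 7 markers of the sorted cells 6 were measured, 3 of them above 0 and 3 below, and Il2ra (CD25), at 23018 in knockout and 4992 in wild-type cells, was the only one past 2-fold. Ptcra and Kit had log2 ratios of 0.62 and 0.14, while Rag1, Dntt and Thy1 had -0.40, -0.28 and -0.23, and Cd44 was not measured. The 7 summed to 215697 in knockout and 234157 in wild-type cells.

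The myeloid, NK cell, thymic stroma and T cell marker lists each had measured members on both sides of 0. Of 5 myeloid markers, Lyz2, at 2646 in knockout and 736 in wild-type cells, and Csf1r were past 2-fold on the high side, Adgre1 had a log2 ratio of -0.05, and Itgam and Mpo lay under the floor on both arrays. The 3 measured probe sets of Csf1r had log2 ratios from 0.05 to 1.37. The 5 myeloid signals summed to 4733 in knockout and 2242 in wild-type cells. The NK cell list summed to 5441 in knockout and 2669 in wild-type cells, most of it from Nkg7 at 4655 in knockout and 1942 in wild-type cells. Ncr1, not measured by its mean, read 554 in knockout and 43.7 in wild-type cells, whereas Klrd1 was at least 1.73-fold lower. The thymic stroma list summed to 6883 in knockout and 4237 in wild-type cells, most of it from Epcam at 4947 in knockout and 2604 in wild-type cells. The 2 measured probe sets of Epcam had log2 ratios of -0.20 and 0.93. Col1a1, at 634 in knockout and 274 in wild-type cells, was at least 1.61-fold higher. Pdgfra, not measured by its mean, read 419 in knockout and 63.4 in wild-type cells. Krt5 had a log2 ratio of -0.19, and Foxn1 and Krt8 lay under the floor on both arrays. All 3 measured B cell markers had a ratio above 0, from 0.54 to 0.90 on the log2 scale, and the list summed to 4242 in knockout and 2382 in wild-type cells. The list of double positive and mature T cells summed to 1187 in knockout and 1797 in wild-type cells, with the widest gap in Cd8b1, not measured by its mean, at 36.8 in knockout and 679 in wild-type cells. Its measured markers Cd8a and Cd69 had log2 ratios of 0.12 and -0.21, and Cd4 and S1pr1 lay under the floor on both arrays. The only erythroid marker with a probe set, Hba-a1, had a log2 ratio of 0.12. The part of other cells in the readings of the genes above was not tested.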

How the data were processed

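Total RNA of 1 Miz1 knockout and 1 wild-type sample of sorted DN3 thymocytes was amplified into biotin-labelled cRNA and hybridised to 1 array each, per the labels' protocols. The deposited values are linear signal intensities. The submitters' processing notes name GCOS 1.4, and its settings are not stated there. With 2% trimmed from either end, the deposited intensity values average 1000.0 on each array, so they were used as scaled. Of 45101 probe sets, 64 control probe sets were left out, and of the others 34945 had 1 gene symbol, 932 had several and 9160 had none. Names came from the platform annotation with symbols updated by gene identifier from RefSeq (GRCm38.p6), a step that renamed none of the 230 probe sets described. The floor of 394 and the 2-fold rule are given in the report. The number of arrays limits the precision.

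The members, roles and partner lists were chosen with earlier results of these data known. The genes named by rule were Vps28, Vamp4, Atg2a and Atg2b, those past 2-fold by any measured probe set, the brightest, highest and lowest of each role, the 5 with the widest probe set range and measured genes of no role, 45 in all, and partner genes past 2-fold. Further genes were named after their values were seen. The alternatives tried were quantile and loess normalization (span 0.3), centring of each array on its median, floors at the lower quartile (119) and the 60th percentile (550.1), the mean of measured probe sets, leaving out probe sets whose IDs end in _a_at, _s_at or _x_at, and updated symbols. The procedure was tested on simulated data with planted differences larger than 2-fold in genes well above the floor. That setting cannot speak for genes near 2-fold or near the floor. Python 3.11.15, numpy 2.4.6, pandas 2.3.3 and statsmodels 0.14.6 were used.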

Additional observations from a re-analysis of the deposited data

How the results depend on the processing

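No paired analysis was possible because there is 1 array per genotype, and for the same reason no sample could be left out. Updated symbols gave the same genes. The count at least 2-fold higher was 2 or 3 under 7 of the 8 alternatives, where between 5.25% and 7.44% of all genes were that much higher. With the floor at the lower quartile it was 8 of 95 measured genes (8.42%), beside 16.7% of all genes. The count at least 2-fold lower was between 4 and 7 except with the floor at the 60th percentile. The highest count, 7 of 95 (7.37%), came with the floor at the lower quartile, where 13.9% of all genes were that much lower. With the floor at the 60th percentile it was 3 of 83 (3.61%), beside 4.76% of all genes, since Stx2 and Atg9b were then not measured. The median was -0.020 after median centring and between 0.06 and 0.14 under the other 7. Vps28 stayed past 2-fold under the 3 other scalings, from -1.39 to -1.17. The other alternatives could not change its value, since its only probe set was not among those left out and read above every floor on both arrays. Stx2 and Atg9b stayed past 2-fold under the 7 alternatives that measured them. Of these only the 3 other scalings could have brought them under it. The only measured probe set of either was not among those left out, and the lower floor could only widen the difference. Vamp4 (-0.41) and Vps37a (0.66) did not stay past 2-fold with the mean of probe sets. Vamp5 (0.98) did not with the floor at the 60th percentile, and Atg2a, at the limit, did not under the 3 other scalings (lowest 0.86). Vps29 passed in 4 of 8 and turned to 0.10 without probe sets of shared sequence. Of the 112 values of role medians under alternatives, 109 moved by less than the spread within genes allows for a median. That limit is wide for roles of few genes, and updated symbols could move none, so the 109 say little about small roles. The ULK median, for example, went from 0.04 to -0.12 after median centring and is among the 109. Those that moved further were ATG8 conjugation (-0.25) and HOPS and CORVET (0.22) with the mean of probe sets, and ESCRT-I and ESCRT-II (0.40) with the lower floor. That floor also took the bounds of Chmp4c, Atg9b and Stx2 to 1.92, -2.83 and -2.99 (log2).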
